A study of Homo sapiens with 18 samples.

Results

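MHC class I antigen processing and presentation was followed through 32 genes, which were chosen by symbol from the known steps of the pathway and matched by Ensembl identifier to the primary GRCh37 chromosomes. All 32 had counts in at least 1 of 18 libraries, out of 34092 genes with counts and 63677 rows in the whole table. The cells were THP-1, an established human acute monocytic leukaemia line, sequenced with QuantSeq, which reads the 3′ end of polyadenylated RNA. There were 6 groups of 3 libraries. KD cells received 25 nM of an siRNA against TRAFD1 (listed with the target sequence cccagccgacccattaacaat), SCR cells received 25 nM of a non-targeting siRNA, and WT cells received no siRNA. Each of these conditions was sampled unstimulated and after 4 h with 10 ng/ml lipopolysaccharide (LPS), added 72 h after transfection. The labels give WT both as untreated cells and as cells given the transfection mix alone, so in SCR against WT the siRNA and the reagent cannot be told apart. All cells were 1 line, treatments were run in triplicate, and nothing states that these were separate cultures, so p-values measure the spread between these libraries.

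MHC class I molecules show peptides from inside the cell to CD8+ T cells and natural killer cells. The proteasome cuts cytosolic proteins into peptides. In its immunoproteasome form the catalytic subunits PSMB8, PSMB9 and PSMB10 replace PSMB5, PSMB6 and PSMB7, and the activator PSME1-PSME2 can cap the core. The transporter TAP1-TAP2 moves peptides into the endoplasmic reticulum, where ERAP1 and ERAP2 trim them and a loading complex of TAPBP, CALR and PDIA3 places them on a heavy chain paired with B2M. NLRC5 is the transactivator of the class I genes, and interferons and NF-kB signals raise many of them. LPS acts through TLR4, which feeds NF-kB and IRF factors, and TRAFD1 has been described as a negative regulator of NF-kB signalling. TAP1, PSME2 and PSMB10 also belonged to the genes that the study linked to TRAFD1 in blood.

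The libraries held 8206023 to 22344279 counts. The floor was taken as 3 counts, or 0.134 to 0.366 per 1000000 counts of the unscaled library totals. Levels are given as CPM (counts per 1000000 counts, scaled to library sizes by TMM). TMM is a scaling that sets the bulk of genes equal between libraries. Of 10 monocytic markers examined, all but MPO lay above the floor in every library, and MPO ranged from 2 to 49 counts (0.155 to 2.36 CPM). Of the 15 markers of T, B, epithelial and erythroid cells, 3 passed the filter on low counts, and CD3D, MS4A1 and HBB stayed at 0 to 2 counts. CD14, a monocyte LPS co-receptor, differed between SCR and WT and also with LPS. Its log2 difference was 1.14 ± 0.20 (SE) in SCR against WT without LPS and -1.53 ± 0.21 with LPS in SCR. The part of such shifts in the results below was not tested. TRAFD1 itself stood at 26.8, 20.1 and 24.2 CPM in unstimulated SCR and at 11.6, 5.36 and 9.01 CPM in unstimulated KD. The groups did not overlap, and the log2 difference was -1.45 ± 0.23 (edgeR quasi-likelihood test, adjusted p = 0.0277). With LPS the values were 21.9, 27.4 and 18.7 CPM in SCR and 15.8, 13.96 and 13.8 CPM in KD, a log2 difference of -0.65 ± 0.22 with adjusted p = 0.262. The unstimulated call was lost in 3 of 6 fits without 1 library (SCR replicate 1 or 3 or KD replicate 2, adjusted p up to 0.123 at log2 -1.20 to -1.42) and in the fit of the compared libraries alone (0.0796), and the LPS comparison passed without the filter on low counts (0.0275) and by DESeq2 on the compared libraries alone (0.0167). The difference between the states did not pass (interaction 0.80 ± 0.32, adjusted p = 0.612).

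Promoter sequences are shown for 5 members because they lie on either side of the LPS results that follow: TAP1 rose with LPS in all 3 conditions, TAP2 did so in KD, and PSMB9, B2M and HLA-B passed in none. Each is the 250 bases before the RefSeq start on GRCh38.p14, read 5′ to 3′ on the gene's own strand. Capitals mark matches to GAAANNGAAA, a core of the sites bound by IRF factors, and to GGGNNTTTCC or GGGNNTTCCC, short forms of the NF-kB site, on either strand.
TAP1 (chr6:32853705-32853954, minus strand): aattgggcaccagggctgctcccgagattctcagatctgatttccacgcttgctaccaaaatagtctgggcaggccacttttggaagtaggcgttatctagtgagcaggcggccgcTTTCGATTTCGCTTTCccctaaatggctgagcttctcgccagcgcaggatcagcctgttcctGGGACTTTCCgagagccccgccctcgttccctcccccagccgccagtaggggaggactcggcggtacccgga
PSMB9 (chr6:32853942-32854191, plus strand): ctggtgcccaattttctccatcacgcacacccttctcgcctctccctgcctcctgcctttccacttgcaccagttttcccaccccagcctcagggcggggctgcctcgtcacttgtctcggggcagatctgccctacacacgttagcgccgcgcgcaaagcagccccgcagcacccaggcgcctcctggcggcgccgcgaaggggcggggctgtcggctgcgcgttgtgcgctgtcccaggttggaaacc
TAP2 (chr6:32838740-32838989, minus strand): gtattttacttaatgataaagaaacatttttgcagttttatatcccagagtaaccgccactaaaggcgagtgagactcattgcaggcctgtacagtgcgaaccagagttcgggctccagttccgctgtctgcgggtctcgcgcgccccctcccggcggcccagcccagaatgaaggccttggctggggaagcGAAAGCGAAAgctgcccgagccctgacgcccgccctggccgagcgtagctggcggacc
B2M (chr15:44711267-44711516, plus strand): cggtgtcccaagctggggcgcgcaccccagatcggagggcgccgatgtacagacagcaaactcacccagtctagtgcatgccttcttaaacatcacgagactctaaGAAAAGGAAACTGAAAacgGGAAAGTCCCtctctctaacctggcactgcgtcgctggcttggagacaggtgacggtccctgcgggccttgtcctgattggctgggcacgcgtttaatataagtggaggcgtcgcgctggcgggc
HLA-B (chr6:31357180-31357429, minus strand): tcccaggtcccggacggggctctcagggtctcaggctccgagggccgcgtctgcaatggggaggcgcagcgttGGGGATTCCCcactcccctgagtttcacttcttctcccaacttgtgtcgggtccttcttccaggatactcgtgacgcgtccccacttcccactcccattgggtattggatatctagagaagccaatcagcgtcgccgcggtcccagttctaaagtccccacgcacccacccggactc

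TAP1 and PSMB9 are divergent neighbours whose starts lie 487 bases apart on chromosome 6, and the windows shown share 13 bases. The TAP1 window held an NF-kB match 72 to 63 bases before the start. It also held a run of overlapping IRF matches from base 134 to base 119. The PSMB9 window held neither kind of match. However, these TAP1 matches lie between the starts of both genes. They are therefore upstream of PSMB9 as well, but beyond the window searched for it. The windows thus do not show that PSMB9 lacks such matches upstream. B2M, which did not pass the test with LPS, carried the same kinds of match as TAP1, with overlapping IRF matches from base 144 to base 129 and an NF-kB match from base 125 to base 116. TAP2 held 1 IRF match and HLA-B 1 NF-kB match. Over the members, 26 of 32 had a promoter in the table (the others were HLA-E, NLRC5, PSMB6, PSMB7, PSMA7 and PDIA3). The first listed start was used where a member had several, whereas the shares of all promoters counted every listed start. IRF matches stood in 8 of the 26 promoters (30.8%), those of HLA-F, B2M, TAP1, TAP2, TAPBP, PSMB10, PSME2 and PSMA4, against 3.02% of all 35116 promoters of the table. NF-kB matches stood in 5 of 26 (19.2%), those of HLA-B, B2M, TAP1, TAPBP and ERAP1, against 3.52%. The STAT dimer motif TTCNNNGAA stood in 2 of 26 (7.69%) against 6.57% and in none of the windows printed. These are matches of letters only, and no binding was measured.

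The members spanned several orders of magnitude in 3′ tag level, which does not scale with gene length. B2M, the invariant light chain, was the most abundant, with group means of 6347 to 6928 CPM, and HLA-B followed at 1221 to 1455 CPM. CALR, TAPBP, CANX, HLA-C and PSMA7 lay at 423 to 731 CPM in group mean. TAP2, PSMA4, PSME2 and PSMB8 lay around 185 to 336 CPM, HLA-E at 102 to 120.4 CPM and NLRC5 at 37.3 to 72.8 CPM. ERAP1 was at 13.9 to 18.6 CPM and ERAP2 at 2.504 to 3.42 CPM. The summed level of all members ranged from 11374 to 15214 CPM in unstimulated WT and from 13858 to 14899 CPM in KD with LPS, and the ranges of the groups overlapped, except that unstimulated SCR (at most 13838 CPM) lay below KD with LPS. Because HLA-B, HLA-C, HLA-E, HLA-F and HLA-G are close in sequence, the split of reads between them is uncertain. Without a stated strand setting HLA-F cannot be told from its antisense neighbour HLA-F-AS1, nor PSMA3 from PSMA3-AS1, nor TAP1 from PSMB8-AS1. The same limit holds for TAPBP, TAPBPL, PSME1, ERAP1, ERAP2, CALR and PDIA3, which also have a gene annotated on the other strand over the counted 3′ end. The PSMB9 gene is also annotated across the counted 3′ end of TAP1, on the other strand, but the counted end of PSMB9 lies elsewhere. On the same strand, another gene is annotated over the counted 3′ end of TAP2 (ENSG00000250264), and of PSMA1, PSMA2 and PSMA6. The part of these overlaps in the counts was not tested.

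**Figure D1:**
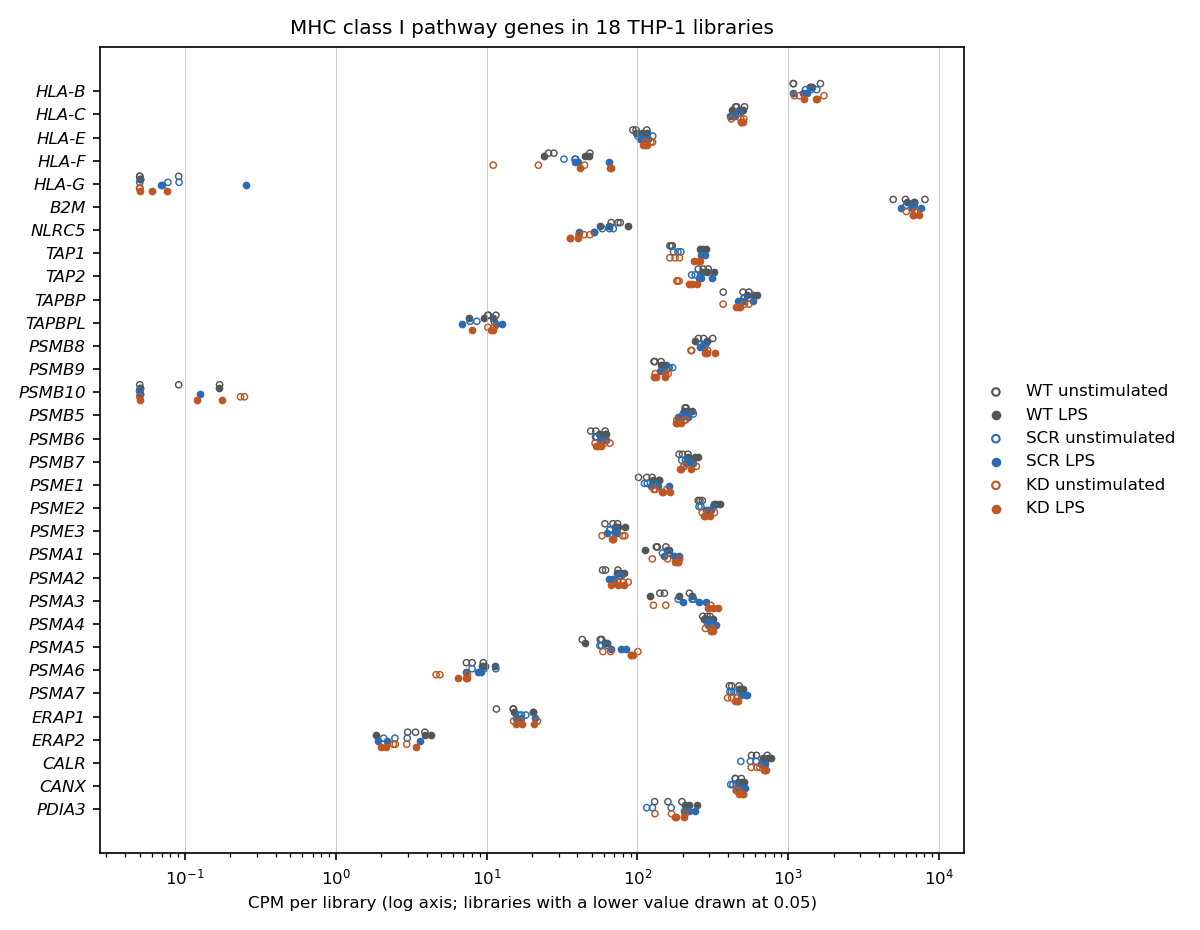
CPM of the 32 members (log axis) in each of 18 libraries, open circles unstimulated and filled circles LPS, coloured by condition. B2M lay near 6347 to 6928 CPM in every group mean and HLA-G and PSMB10 lay near 0, while the groups of most genes overlapped.

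HLA-G and PSMB10 did not pass the filter on low counts, which left 30 members tested among 16678 genes. HLA-G, a restricted heavy chain, had 0 to 2 counts in every library. PSMB10, the third immunoproteasome catalytic subunit, had 3, 1 and 0 counts in unstimulated WT, 1, 0 and 0 in unstimulated SCR, and 0, 3 and 3 in unstimulated KD. With LPS it had 0, 2 and 0 counts in WT, 1, 0 and 0 in SCR, and 2, 2 and 0 in KD, so all 18 libraries were at or under the floor. The annotation places another gene on the same strand over the 3′ end of PSMB10 (ENSG00000261884), and whether reads were lost to that overlap was not tested. Its partners were well covered, PSMB8 at 249 to 299 CPM and PSMB9 at 134 to 164 CPM in group mean.

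The first question was how class I genes responded to LPS in each condition. In WT, TAP1 and PSME2 rose and no member fell. In SCR, TAP1, PDIA3, PSMA7 and CALR rose and NLRC5 fell, and in KD, TAP1, TAP2 and HLA-F rose. Read against all genes tested, these shares were at or below the background: 2 of 30 members passed in WT (all genes 14.3%), 5 of 30 in SCR (17.2%) and 3 of 30 in KD (11.5%). The median log2 change of the members was 0.14 in WT, 0.06 in SCR and 0.06 in KD, beside -0.03, -0.03 and -0.0029 over all genes. Unstimulated and LPS groups did not overlap for 8 members in WT, where 32.5% of all genes did not, for 11 in SCR (37.3%) and for 5 in KD (25.4%). The share of counts from mitochondrial genes was higher with LPS in every library of WT (3.19% to 3.37% and then 3.82% to 4.45%) and of SCR (3.28% to 3.47% and then 3.72% to 5.20%), and overlapped in KD (3.87% to 4.86% and then 4.28% to 5.14%). Its part in the LPS results was not tested.

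TAP1 (GRCh37 chromosome 6, 32812986 to 32821593, minus strand), a subunit of the peptide transporter, was the member with the clearest response. In WT it went from 164, 170.3 and 168 CPM to 258, 286 and 274 CPM. In SCR it went from 194, 174 and 186 CPM to 266, 267 and 280.4 CPM, and in KD from 164, 190.2 and 178 CPM to 259, 254 and 236 CPM. Every LPS library lay above every unstimulated library of all conditions. The log2 changes were 0.70 ± 0.08 in WT (1.63-fold, adjusted p = 2.0e-06), 0.55 ± 0.08 in SCR (1.47-fold, adjusted p = 6.0e-05) and 0.50 ± 0.08 in KD (1.41-fold, adjusted p = 2.7e-04). The response did not differ past the threshold between KD and SCR (interaction -0.06 ± 0.11, adjusted p = 0.927) or between SCR and WT (interaction -0.15 ± 0.11, adjusted p = 0.682).

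TAP2 (chromosome 6, 32789610 to 32806516, minus strand), the other subunit of the same transporter, followed less. It stood at 295, 254 and 273 CPM in unstimulated WT and at 323, 290.1 and 269 CPM with LPS. In SCR it went from 242, 262 and 229 CPM to 313, 258 and 262 CPM, and in KD from 184, 183 and 189 CPM to 247, 229 and 219 CPM. Only in KD were the groups apart, and TAP2 rose there by 0.32 ± 0.10 log2 (adjusted p = 0.0312), beside 0.10 ± 0.09 in WT and 0.18 ± 0.09 in SCR. The KD response was not shown to differ from that in SCR (interaction 0.14 ± 0.13, adjusted p = 0.828), and the KD call was lost in 4 of 6 fits without 1 library. Within a library, the ratio of TAP1 to TAP2 counts was 0.615 ± 0.057 (SD, n = 3) in unstimulated WT and 0.934 ± 0.117 with LPS, and it went from 0.759 ± 0.084 to 0.984 ± 0.118 in SCR and from 0.958 ± 0.076 to 1.08 ± 0.029 in KD. The ratio in unstimulated KD, 0.893 to 1.04, was above both unstimulated controls.

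The immunoproteasome subunits next to TAP1 did not follow it past the threshold. PSMB9 stood at 130.4, 129 and 144 CPM in unstimulated WT and at 144, 147 and 154 CPM with LPS. It stood at 159.5, 171 and 163 CPM in unstimulated SCR and 150.3, 140.2 and 147 CPM with LPS, and in KD at 131, 160.0 and 154 CPM and then 151, 133 and 129 CPM. The log2 differences with LPS were 0.14 ± 0.09 in WT, -0.17 ± 0.09 in SCR and -0.11 ± 0.09 in KD, with adjusted p = 0.361, 0.215 and 0.499 by edgeR. PSMB8 stood at 316, 254 and 275 CPM in unstimulated WT and 288, 289.6 and 242 CPM with LPS. In SCR its values were 284, 262 and 277 CPM and then 273, 278 and 258 CPM, and in KD 293, 229 and 227 CPM and then 327, 290.1 and 279 CPM. All 3 PSMB8 comparisons overlapped between groups and missed the threshold, the largest being 0.26 ± 0.11 in KD (adjusted p = 0.127). Against the constitutive subunits they replace, the ratio of counts was 1.27 to 1.61 for PSMB8 over PSMB5 and 2.46 to 3.09 for PSMB9 over PSMB6 in the group means.

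**Figure D2:**
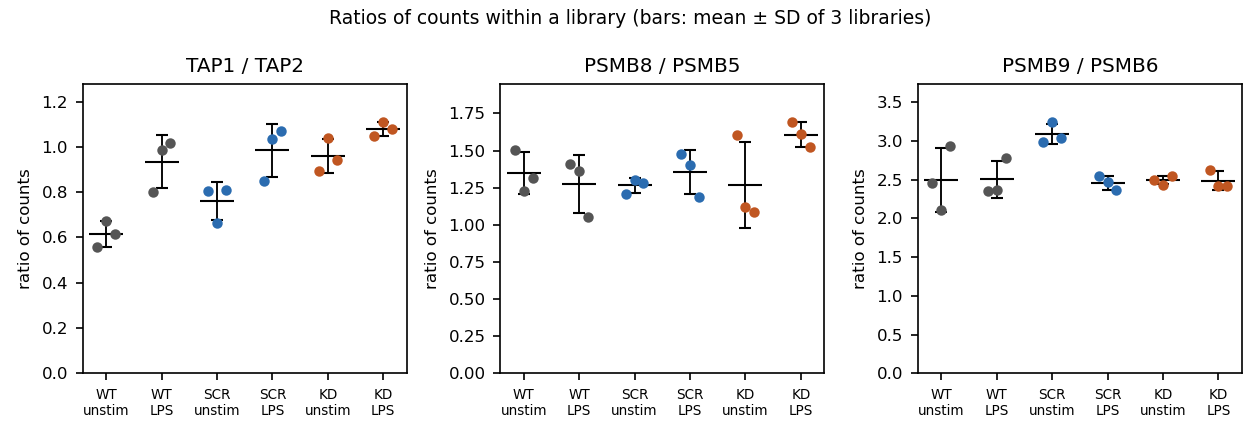
Ratio of counts of TAP1 to TAP2, PSMB8 to PSMB5 and PSMB9 to PSMB6 within each library, by group, with points for libraries and bars for mean ± SD (n = 3). The mean of TAP1 to TAP2 was 0.615 in unstimulated WT and 0.934 with LPS, and the group means of PSMB8 to PSMB5 lay between 1.27 and 1.61.

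PSME2, the beta subunit of the PA28 proteasome activator, was at 259.8, 269.5 and 253 CPM in unstimulated WT and at 333, 324 and 352 CPM with LPS. It rose by 0.37 ± 0.09 log2 (adjusted p = 0.00833), with every LPS library above every unstimulated one. In SCR the values were 320.4, 256 and 264 CPM and then 293, 284 and 307 CPM, and in KD 269, 325 and 298 CPM and then 302, 279 and 278 CPM, overlapping in both. The difference in response between SCR and WT was -0.30 ± 0.13 (adjusted p = 0.468). Its partner PSME1 gave 0.24 ± 0.11 in WT and 0.25 ± 0.11 in SCR, neither past the threshold, and PSME3, which caps the nuclear proteasome, gave at most 0.17.

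Among the endoplasmic reticulum chaperones, PDIA3, the disulfide isomerase of the loading complex, went from 115, 167 and 126 CPM to 219, 202 and 239.9 CPM in SCR and rose by 0.70 ± 0.16 log2 (adjusted p = 0.00456). In WT it went from 130.1, 197 and 159 CPM to 248, 208 and 220.1 CPM without passing (0.47 ± 0.16, adjusted p = 0.0517), and in KD it stood at 131, 207 and 168 CPM and then 178, 180.1 and 205 CPM, with overlap. CALR, the lectin chaperone calreticulin, rose in SCR from 485, 614 and 561 CPM to 703, 657 and 696 CPM (0.31 ± 0.09, adjusted p = 0.0270), a call lost in 4 of 6 fits without 1 library. In WT the CALR groups were 571, 727 and 616 CPM against 772, 739 and 684 CPM and overlapped, and in KD they were 568, 622 and 648 CPM against 707, 708 and 696 CPM, apart but not past the threshold (0.20 ± 0.09, adjusted p = 0.181). CANX, the membrane-bound lectin chaperone calnexin, gave 0.09 to 0.17. TAPBP, which bridges TAP and the heavy chain, was at 371, 549 and 501 CPM in unstimulated WT, 509, 514 and 551 CPM in SCR and 370.1, 513 and 548 CPM in KD, and with LPS at 532, 583 and 626 CPM, 468, 512 and 580.3 CPM and 479, 454 and 474 CPM. It passed in no condition, and neither did its relative TAPBPL nor the trimming peptidases ERAP1 and ERAP2.

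Heavy and light chains showed no LPS response past the threshold apart from HLA-F. B2M was at 5993, 8076 and 4973 CPM in unstimulated WT and 6878, 6858 and 6116 CPM with LPS. In SCR B2M was at 6058, 6874 and 6756 CPM and then 5622, 7591 and 6578 CPM, and in KD at 6995, 6074 and 6893 CPM and then 7363, 6727 and 6694 CPM. Its log2 differences were 0.06, 0.01 and 0.06 with an SE near 0.13, less than the spread between libraries. HLA-B was at 1084, 1636 and 1082 CPM in unstimulated WT, 1304, 1548 and 1409 CPM in SCR and 1098, 1183 and 1726 CPM in KD. With LPS HLA-B was at 1388, 1445 and 1401 CPM, 1255, 1335 and 1074 CPM and 1553, 1277 and 1533 CPM, and the groups overlapped in each condition. HLA-E, the ligand of CD94-NKG2 receptors, was at 93.3, 97.9 and 115 CPM in unstimulated WT, 126, 114 and 101 CPM in SCR and 113, 126 and 123 CPM in KD. With LPS HLA-E was at 107, 98.4 and 115 CPM, 118, 105 and 109 CPM and 116, 109 and 112 CPM, overlapping in each condition. HLA-F, a non-classical heavy chain, was at 44.6, 11.1 and 22.1 CPM in unstimulated KD and at 67.0, 66.0 and 41.4 CPM with LPS. It rose by 1.16 ± 0.35 log2 (adjusted p = 0.0366) although the groups overlapped, and the call was lost in 4 of 6 fits without 1 library.

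NLRC5 (GRCh37 chromosome 16, 57023397 to 57117443, plus strand) went the other way. In SCR it fell by 0.42 ± 0.14 on the log2 scale with LPS, from 69.2, 65.3 and 58.5 CPM to 51.8, 41.0 and 51.7 CPM (adjusted p = 0.0370), and the call was lost in 5 of 6 fits without 1 library. In KD its values were 44.3, 48.4 and 41.0 CPM and then 40.3, 35.8 and 35.6 CPM, a difference of -0.26 ± 0.14 (adjusted p = 0.240). In WT they were 74.4, 67.0 and 77.0 CPM and then 56.7, 64.4 and 86.4 CPM, with overlap. Among the alpha-ring subunits of the proteasome, PSMA7 rose in SCR from 421, 411 and 437 CPM to 522, 487 and 533 CPM (0.28 ± 0.08, adjusted p = 0.0150), a call lost in 3 of 6 fits without 1 library and when low-count genes were kept. It was at 472, 422 and 407 CPM in unstimulated WT and 504, 481 and 474 CPM with LPS, and in KD at 457, 422 and 397 CPM and then 445, 457 and 461 CPM. The remaining alpha-ring subunits and the constitutive catalytic subunits PSMB5, PSMB6 and PSMB7 passed in no condition.

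**Figure D3:**
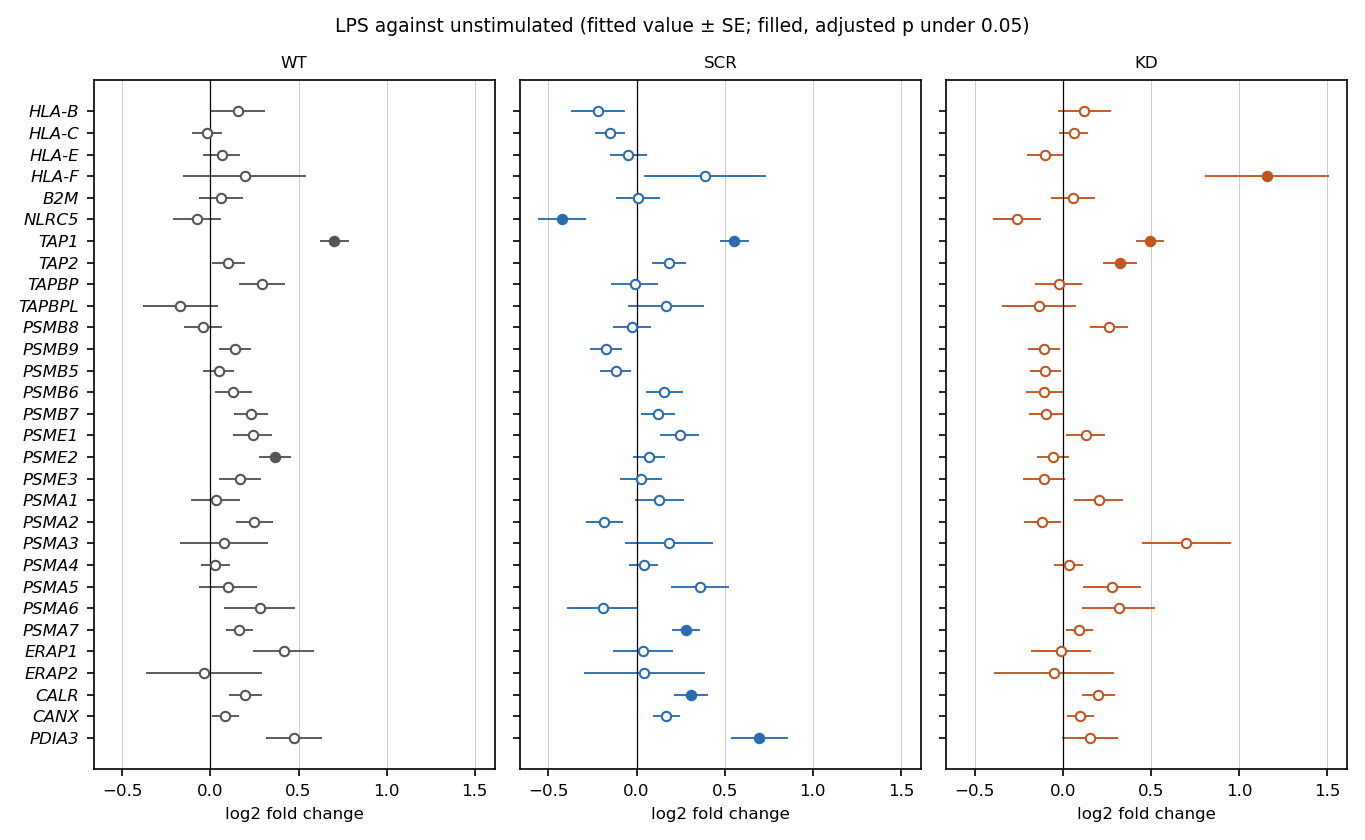
Fitted log2 fold change of LPS against unstimulated (± SE) for the 30 tested members in WT, SCR and KD, filled where the adjusted p was under 0.05. TAP1 is filled in all 3 panels (0.70, 0.55 and 0.50), and NLRC5 in SCR (-0.42) is the only filled point below 0.

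A wider list of 54 genes around the pathway (the 19S regulator, other ring subunits, assembly factors, cytosolic peptidases, transcription factors and class I-like molecules) had 52 genes tested. With LPS, 3 were higher and 3 lower in WT (all genes 14.3%), 6 and 3 in SCR (17.2%), and 3 and 3 in KD (11.5%), shares at or near those of all genes. IRF1, a transcription factor of interferon and class I genes, rose in all 3 conditions, by 0.70 ± 0.10 (adjusted p = 4.1e-05), 0.43 ± 0.10 (adjusted p = 0.00554) and 0.41 ± 0.10 (adjusted p = 0.0120) on the log2 scale. PSMD11, a lid subunit of the 19S regulator, rose in SCR by 0.69 ± 0.15 and in KD by 1.11 ± 0.15. RFXAP, a subunit of the RFX factor that binds MHC promoters, fell by 1.01 ± 0.27 in WT and by 1.10 ± 0.27 in KD on the log2 scale. CD1D, a lipid-presenting class I-like molecule, fell in WT by 0.92 ± 0.26, and PSMB1, a non-catalytic beta subunit, fell in SCR by 0.43 ± 0.09.

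The next question was whether TRAFD1 siRNA changed class I genes against the non-targeting siRNA. No member passed in unstimulated cells, where 0.066% of all genes (11 of 16678) did, or with LPS, where 0% did. At an unadjusted p under 0.05 there were 4 members without LPS and 4 with it, beside 2107 and 1963 of all genes. The medians of the members were 0.02 and -0.0016 log2. Groups did not overlap for 5 members without LPS (all genes 15.1%) and 8 with LPS (21.5%), so the members lay near the background in both. By DESeq2 on all 18 libraries, 3 members were lower in unstimulated KD and none passed with LPS. On the libraries of the comparison alone, DESeq2 called PSMA3 higher with LPS and no member without it. The shares of all genes called in these DESeq2 fits are not given here, so their member counts have no background beside them.

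The 3 members called by DESeq2 in unstimulated cells were TAP2, NLRC5 and PSMA6. NLRC5 was at 69.2, 65.3 and 58.5 CPM in SCR and 44.3, 48.4 and 41.0 CPM in KD, all KD libraries below, with a log2 difference of -0.53 ± 0.14 (adjusted p = 0.0949 by edgeR, 0.0366 by DESeq2). TAP2 was at 242, 262 and 229 CPM in SCR and 184, 183 and 189 CPM in KD, again all below, with -0.40 ± 0.10 (adjusted p = 0.0802 by edgeR, 0.0178 by DESeq2). PSMA6, an alpha-ring subunit, was at 9.68, 11.5 and 7.997 CPM in SCR and 4.89, 4.62 and 7.45 CPM in KD, with -0.78 ± 0.20 (adjusted p = 0.103 by edgeR, 0.0393 by DESeq2). The PSMA6 levels rest on 56 counts in the lowest library. For both PSMA6 and TAP2, another gene is annotated on the same strand over the 3′ end, and its part in these differences was not tested. The share of counts from mitochondrial genes was also higher in unstimulated KD, 3.87% to 4.86%, than in unstimulated SCR, 3.28% to 3.47%, and its part in these differences was not tested. In bulk libraries, fewer cells that express a gene and less RNA of it per cell cannot be told apart.

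With LPS, NLRC5 in KD (40.3, 35.8 and 35.6 CPM) was again below every SCR library (51.8, 41.0 and 51.7 CPM), at -0.37 ± 0.14 (adjusted p = 0.303). TAP2 in KD (247, 229 and 219 CPM) was below SCR (313, 258 and 262 CPM) at -0.26 ± 0.10 (adjusted p = 0.285). The other members with an unadjusted p under 0.05 were HLA-C, higher in all KD libraries by 0.21 ± 0.08 (adjusted p = 0.337), and PSMA7, lower in all by 0.18 ± 0.08 on the log2 scale (adjusted p = 0.372). Neither direction was a change past the threshold. TAP1 differed by -0.06 ± 0.08 without LPS and -0.12 ± 0.08 with it, PSME2 by 0.08 ± 0.09 and -0.04 ± 0.09, and PSMB9 by -0.15 ± 0.09 and -0.08 ± 0.09. B2M differed by 0.02 ± 0.13 and 0.07 ± 0.13 and HLA-B by -0.09 ± 0.15 and 0.25 ± 0.15, both smaller than or near the spread between libraries. No member passed the test for a difference in LPS response between KD and SCR (0 of 30, 0% of all genes). At an unadjusted p under 0.05 there was 1 member, beside 1274 of all 16678 genes. That member was PDIA3, at -0.54 ± 0.23 (adjusted p = 0.624).

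**Figure D4:**
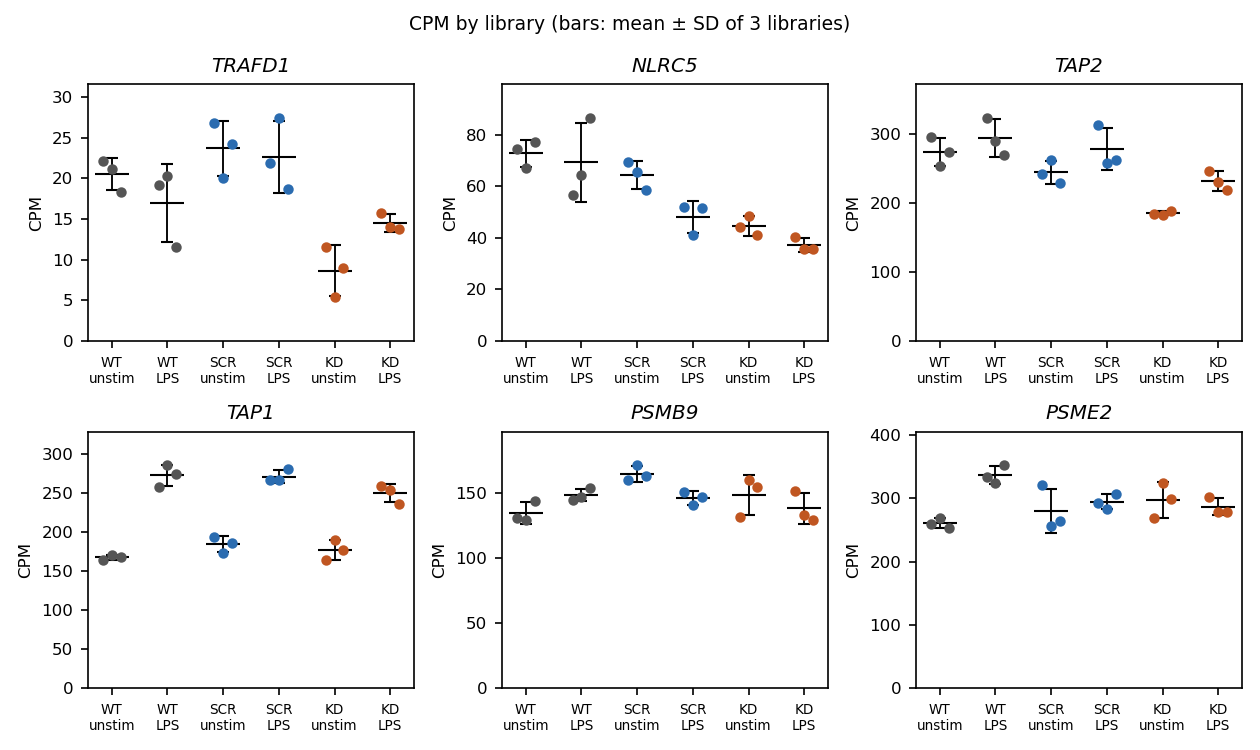
CPM of TRAFD1, NLRC5, TAP2, TAP1, PSMB9 and PSME2 in each library by group, with bars for mean ± SD (n = 3). NLRC5 and TAP2 in unstimulated KD (means 44.6 and 185 CPM) lay below both unstimulated controls, and TAP1 was higher with LPS in each condition.

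KD was also compared with WT, which differs from it by any siRNA and possibly by the reagent, not by the TRAFD1 sequence alone. Against WT the siRNA and the reagent cannot be told apart. These comparisons share the KD libraries with those above, and the comparison of SCR with WT shares the WT libraries. The mitochondrial share was 3.19% to 3.37% in unstimulated WT and 3.87% to 4.86% in unstimulated KD, and with LPS the WT and KD ranges overlapped. Its part in these results was not tested. In unstimulated cells TAP2 and NLRC5 were lower and PSMA5 was higher, 3 of 30 members where 11.7% of all genes passed, and the groups did not overlap for 6 members (all genes 24.3%). With LPS, TAP2 and NLRC5 were lower and PSMA3 and PSMA5 higher, 4 of 30 where 10.8% of all genes passed, and the groups did not overlap for 13 (all genes 35%). NLRC5 fell by 0.71 ± 0.14 on the log2 scale without LPS (WT 74.4, 67.0 and 77.0 CPM, adjusted p = 0.00191) and by 0.89 ± 0.14 with LPS (WT 56.7, 64.4 and 86.4 CPM, adjusted p = 0.00104). TAP2 fell by 0.56 ± 0.10 without LPS (adjusted p = 6.9e-04) and by 0.34 ± 0.10 with it (adjusted p = 0.0245). The KD libraries of both genes lay below all WT libraries of the same state, and the calls for NLRC5 in both states and TAP2 without LPS passed in all 6 fits without 1 library, while TAP2 with LPS was lost in 3 of 6.

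Of the alpha-ring subunits, PSMA5 was called higher in KD than in WT in both states, and PSMA3 with LPS only. With LPS, the means of both were also higher in SCR than in WT, without passing. PSMA5 was at 58.0, 56.7 and 43.1 CPM in unstimulated WT and 101, 59.0 and 66.5 CPM in KD, a rise of 0.52 ± 0.17 (adjusted p = 0.0435) that was lost in 2 of 6 fits without 1 library (WT replicate 3 or KD replicate 1) and in both fits of the compared libraries alone. With LPS PSMA5 was at 63.2, 60.6 and 44.9 CPM in WT and 93.1, 90.9 and 91.2 CPM in KD, a rise of 0.71 ± 0.16 (adjusted p = 0.0114) that was lost without WT replicate 6 (0.57). PSMA3 with LPS was at 190.0, 230.5 and 121 CPM in WT and 318, 344 and 295 CPM in KD, a rise of 0.82 ± 0.25 (adjusted p = 0.0411) that was lost in 5 of 6 fits without 1 library. In unstimulated KD, replicate 1 stood apart from the other 2 libraries for these and other members, with PSMA3 at 306 CPM against 128 and 154, PSMA5 at 101 against 59.0 and 66.5, and HLA-F at 44.6 against 11.1 and 22.1. The same library was high for PSMB8 (293 CPM against 229 and 227) and PSME1 (157 against 129 and 131), and low for TAPBP (370.1 against 513 and 548) and PSME3 (58.2 against 80.0 and 82.6). Without that library, PSMA5 in KD against WT was 0.26 and no longer past the threshold, and the members called for LPS in KD went from 3 to 6. The share of all genes called without that library is not given here, so this count cannot be read as particular to the members. In WT with LPS, replicate 6 was the lowest library for PSMA3, PSMA5 and HLA-F.

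SCR against WT served as the background of the siRNA treatment, in which the siRNA and the reagent cannot be told apart. No member passed in unstimulated cells, where 3.23% of all genes did, or with LPS, where 0.114% did. In each state 3 of 30 members had an unadjusted p under 0.05, beside 2866 and 2285 of all 16678 genes, and the counts of all genes past the threshold were 538 and 19. Groups did not overlap for 5 members without LPS (all genes 22.6%) and for 6 with it (22.8%). NLRC5 was the member with the lowest value against WT with LPS, at -0.53 ± 0.14 (SCR 51.8, 41.0 and 51.7 CPM, WT 56.7, 64.4 and 86.4 CPM, adjusted p = 0.125 by edgeR, 0.0243 by DESeq2). Without LPS it was at -0.18 ± 0.13, with overlapping groups. TAP2 gave -0.17 ± 0.09 without LPS and -0.08 ± 0.09 with it, overlapping in both. PSMA5 with LPS was higher in SCR (66.8 to 83.5 CPM) than in WT (44.9 to 63.2 CPM), at 0.43 (adjusted p = 0.267 by edgeR). PSMA3 with LPS stood at 202 to 285 CPM in SCR and 121 to 230 CPM in WT, with overlap. PSMB9 in unstimulated cells was higher in every SCR library than in every WT library, at 0.29 ± 0.09 (adjusted p = 0.0882). The difference in LPS response between SCR and WT passed for no member (0.234% of all genes). At an unadjusted p under 0.05 there were 3 of 30 members, beside 1661 of all 16678 genes.

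**Figure D5:**
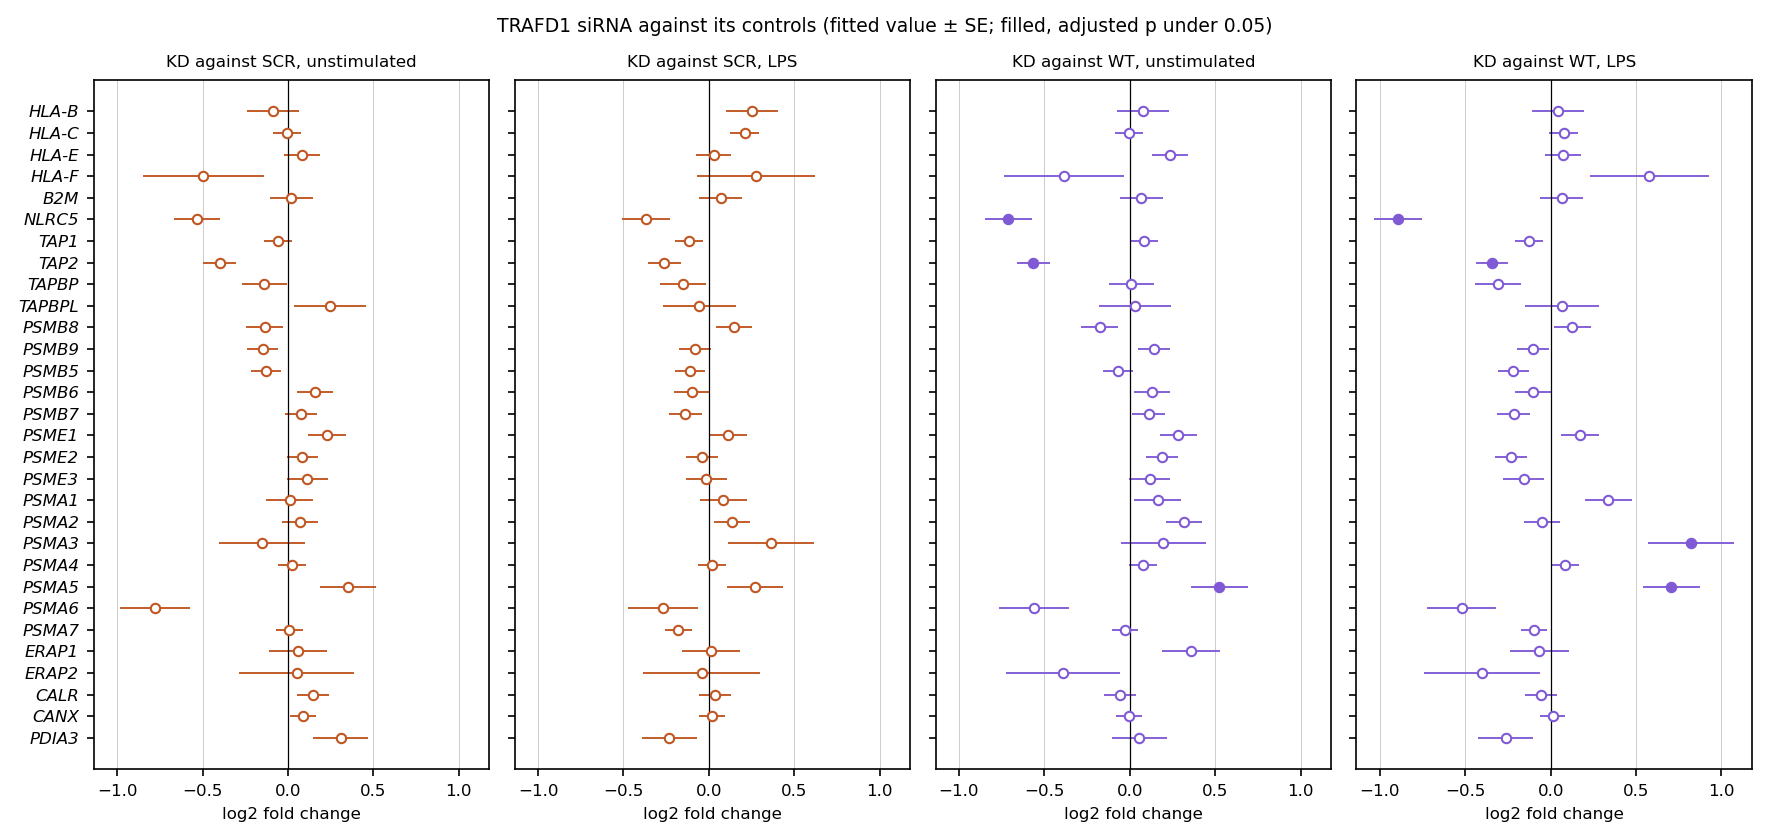
Fitted log2 fold change (± SE) of the 30 tested members for KD against SCR and KD against WT, unstimulated and with LPS, filled where the adjusted p was under 0.05. No point is filled against SCR, and against WT NLRC5 (-0.71 and -0.89) and TAP2 (-0.56 and -0.34) are filled below 0.

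In the wider list, no gene passed for KD against SCR in either state. Against WT, 7 of 52 were lower and none higher without LPS, where 11.7% of all genes passed, and 8 were lower and 6 higher with LPS, where 10.8% did. SCR against WT gave 2 lower without LPS (all genes 3.23%) and none with it (0.114%).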

How the data were processed

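The table deposited by the authors holds raw read counts per Ensembl gene for 18 QuantSeq libraries, neither normalized nor pooled. Per the labels and the study's methods, reads were trimmed, aligned with HISAT to GRCh37 and counted with featureCounts over the terminal 500 bases of each gene. A strand setting was not given in the sources used here. Such a count follows the 3′ end in use and can miss reads that overlapping or near-identical genes share. All 18 count columns were used and 0 were left out.

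Genes were named by identifier from GENCODE v44lift37. Counts were filtered with filterByExpr by group (16678 genes kept), scaled by TMM and fitted with edgeR 4.0.16 (R 4.3.3) in 1 quasi-likelihood model with a mean per group over all 18 libraries. The 11 contrasts were tested with glmQLFTest, two-sided, with Benjamini-Hochberg adjustment over all genes tested, and an adjusted p under 0.05 was called. SE is the log2 value divided by the root of F. DESeq2 1.42.0, RLE scaling, no filter, a replicate block, the compared libraries alone and leaving out each library were alternatives. The fit was tested on simulated counts. No 2 libraries of a group agreed within sampling noise (chi-square per degree of freedom at least 4.92).

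The members and lists were chosen with earlier results of these data known. All members are accounted for. Every library is given for a fixed set of 10 genes and for members called, at most 3 per contrast, with a few more added after their values were seen. Replicate numbers are shared between conditions within a stimulation state. Deviations of same-numbered libraries correlated above 0.1 in every pair only for SCR against WT with LPS (0.163 to 0.261), where the block left 0 members called. In unstimulated KD against WT, replicate 1 correlated at 0.304, and replicates 2 and 3 at 0.0039 and 0.049.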

Additional observations from a re-analysis of the deposited data

Results flagged for a closer look

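PSMB9 moved in opposite directions with LPS in SCR and in WT, each without overlap between the groups: the log2 difference was -0.17 in SCR and 0.14 in WT, and neither passed the threshold. The difference between these responses was tested as an interaction and did not pass (-0.31 ± 0.13, adjusted p = 0.457 by edgeR).

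PSMA2, an alpha-ring subunit, was higher in every SCR library than in WT without LPS (0.25) and lower in every SCR library with LPS (-0.19). Its interaction did not pass either (-0.43 ± 0.15, adjusted p = 0.385 by edgeR).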

How the results depend on the processing

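Counts of members called changed with the processing as follows. For KD against SCR without LPS, 0 became 3 by DESeq2 on all libraries, 2 without the filter and 2 with the replicate block (TAP2 and NLRC5 in each), all lower. With LPS, 0 became 1 (PSMA3, higher) by DESeq2 on the compared libraries alone. For SCR against WT with LPS, 0 became 1 by both DESeq2 fits (NLRC5) and 3 without the filter. For KD against WT with LPS, 4 became 7 with the replicate block, 9 in the compared libraries alone and 9 by DESeq2 on them. For LPS in KD, 3 became 1 (TAP1) in the compared libraries alone by edgeR and 1 by DESeq2 on them. The KD and SCR interaction went from 0 to 1 (HLA-F) without the filter. The block changed no other count by over 1.5 times, and it was not possible for LPS within a condition because those groups share no number. For SCR against WT with LPS, same-numbered libraries correlated at 0.163 to 0.261, and the highest values with another number were -0.119 to -0.0094. Whether those libraries were paired is not known. Same-numbered libraries were not shown to be paired in the other comparisons. The cause of the changes in these counts was not tested. The shares of all genes called under each alternative or without 1 library are not given here. These counts therefore cannot be read as particular to the members.

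Leaving out 1 library gave 2 to 5 for KD against WT without LPS (5 without WT replicate 2), 2 to 4 with LPS (2 without WT replicate 4, WT replicate 6, KD replicate 5 or KD replicate 6), 2 to 5 for LPS in WT (5 without WT replicate 2), 2 to 4 for LPS in SCR (2 without LPS replicate 4 or 6, 3 without unstimulated replicate 1 or 2), 1 to 6 for LPS in KD (6 without KD replicate 1, 1 without KD replicate 2, 3, 4 or 5) and 0 to 0 for all other comparisons. Uncalled values for KD against SCR crossed 0 without 1 library. Without LPS, HLA-B (-0.09) ranged from -0.32 to 0.034 and TAPBP (-0.14) from -0.25 to 0.016, both above 0 without KD replicate 1, and B2M (0.02) ranged from -0.035 to 0.081, at -0.035, -0.018 and -0.0064 without SCR replicate 1, KD replicate 1 and KD replicate 3. With LPS, B2M (0.07) ranged from -0.032 without SCR replicate 4 to 0.18, and HLA-E (0.03) from -0.0091 without SCR replicate 5 to 0.075. TAP1 with LPS in all 3 conditions, PSME2 in WT, PDIA3 in SCR, NLRC5 against WT in both states and TAP2 against WT without LPS passed in every alternative tried. PSMB10 and HLA-G are limited by counts.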
